A study of Mus musculus with 10 samples.

Results

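Loss of Il4, the gene of the type 2 cytokine IL-4, was examined in tumour-infiltrating CD4 T cells that keep the TGF-beta receptor gene Tgfbr2. The comparison set the Il4-/- replicates against the WT replicates, 4 of the 10 samples of the series, across the 17363 named genes of the deposited table. All mice were C57BL/6, 23 weeks old, and carried PyMT, an oncogene that drives mammary tumours. WT stood for Tgfbr2fl/fl PyMT mice, which have floxed Tgfbr2 and no Cre, so the gene is intact. Il4-/- stood for Il4-/- Tgfbr2fl/fl PyMT mice, again with no Cre. Il4 was therefore missing from every cell of these mice, tumour and myeloid cells included, and a T cell's own lack of IL-4 cannot be told apart from the lack of IL-4 made by other cells. KO stood for ThPOK-Cre Tgfbr2fl/fl PyMT mice, in which Cre under the ThPOK promoter deletes Tgfbr2 in the CD4 lineage, and Il4-/-KO for mice with both changes. CD4+CD25- cells were sorted from digested tumours, which leaves out cells with surface CD25. Each genotype had 2 replicates. Separate mice are not named for them in the labels, and the tests therefore measure a spread between samples that may be technical. Each KO replicate had a first and a repeat library from its RNA.

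IL-4 binds a receptor made of the IL-4 receptor alpha chain and the common gamma chain. The receptor acts through the kinases JAK1 and JAK3 and the transcription factor STAT6, which enters the nucleus and turns on target genes. In CD4 T cells this route favours the type 2 helper program, with GATA3 as its main transcription factor and IL-4, IL-5 and IL-13 as its cytokines. The genes of these 3 cytokines lie together on mouse chromosome 11. IL-4 also acts on macrophages, where it induces genes of alternative activation such as Mrc1.

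STAT proteins bind palindromes of the form TTCNNNGAA, and STAT6 also takes a wider form with 4 free bases between TTC and GAA. Both read the same on either strand. The sequences below show these letters at the start of the removed gene and at a gene of the IL-4 and STAT6 response list. They are RefSeq promoters on GRCm38.p6, minus strand, covering the 250 bases before an annotated start, with matches in capitals. Il4 is shown at chr11:53618666-53618915, 1 of its 2 annotated starts, where the wider form begins 167 bases before the start. The other Il4 start holds neither form. Bcl6, a repressor that opposes several helper programs, is shown at chr16:23981284-23981533, 1 of its 2 annotated starts, where TTCNNNGAA begins 168, 122 and 88 bases before the start.
Il4: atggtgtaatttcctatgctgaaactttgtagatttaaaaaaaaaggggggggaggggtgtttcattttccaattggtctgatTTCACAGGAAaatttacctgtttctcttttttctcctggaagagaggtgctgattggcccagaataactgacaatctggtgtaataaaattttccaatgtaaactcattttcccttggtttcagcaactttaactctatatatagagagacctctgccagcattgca
Bcl6: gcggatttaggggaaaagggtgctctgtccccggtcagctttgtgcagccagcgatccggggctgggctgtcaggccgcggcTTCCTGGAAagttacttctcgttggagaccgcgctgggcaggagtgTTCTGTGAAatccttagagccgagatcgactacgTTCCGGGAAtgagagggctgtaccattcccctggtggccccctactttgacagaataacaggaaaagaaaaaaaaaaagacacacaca
Of the 14473 genes tested, 11133 had such a promoter under the same symbol. In their upstream 250 bases, 5.56% held the wider form and 7.32% held TTCNNNGAA. In the IL-4 and STAT6 response list, 17 of 19 members tested had a promoter. None of these held the wider form, and 2, Bcl6 and Fgl2, held TTCNNNGAA. Among 13 type 2 helper genes with a promoter, 1 held the wider form, which was Il4, and none held TTCNNNGAA. A match is a run of letters and not a shown binding site.

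The libraries differed in depth along the same line as the genotypes. WT libraries held 17121030 and 18479090 reads and the first KO libraries 17181221 and 17204442. Il4-/- libraries held 28552482 and 33802781 reads, and the KO repeats and Il4-/-KO also had more than 25000000. Genotype and library set cannot be told apart from WT and Il4-/- alone. The only samples in both sets were the KO replicates, so the difference between the repeat and the first library of each KO replicate, made from 1 RNA, is printed beside the results as a measure of library set. Across the genes tested, log2 values correlated at r = 0.835 between the WT replicates, 0.855 between the Il4-/- replicates and 0.826 to 0.901 between the genotypes. Replicates of a genotype were thus no more alike than samples of the other genotype. A number of 3 reads, the upper limit that a count of 0 allows, came to 3.95 and 3.96 normalized counts in the WT libraries and 2.43 and 1.93 in those of Il4-/-, a limit that covers counting error only, since amplified reads are not independent molecules.

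No gene passed the threshold between Il4-/- and WT. The test was limma on log2(normalized count + 1) with Benjamini-Hochberg adjustment, and the smallest adjusted p was 0.414. This was 0 of 14473 genes, or 0.0%. At an unadjusted p under 0.05 there were 562 genes, fewer than the 724 that chance gives when nothing differs. Of these, 367 were higher in Il4-/- (2.54% of genes tested) and 195 were lower (1.35%). Both Il4-/- replicates lay above both WT replicates for 2131 genes (14.7%) and below both for 2114 (14.6%). On the reads recovered from the table, edgeR called 0 genes (459 at an unadjusted p under 0.05) and DESeq2 called 29 (0.2%), 22 higher and 7 lower. Of those 29, 8 were at 0 in both WT replicates, 2 were at 0 in both Il4-/- replicates, and 5 were at 0 in Il4-/- replicate 1 and above 0 in replicate 2. The gene values that follow are log2 differences, Il4-/- minus WT on the log2(normalized count + 1) scale, with their standard error. This scale understates the change of low genes. None of the genes named had a limma adjusted p under 0.414 in this comparison.

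Il4 itself was counted in both genotypes. Il4 (chromosome 11, 53602982 to 53618669, minus strand, mm10) had normalized counts of 107 and 276 in WT and 97 and 75 in Il4-/-. Both Il4-/- values lay under both WT values, the nearer by little, and the log2 difference was -1.0 ± 0.83 (limma adjusted p = 1.0). Which bases the deletion removes is not given in the sources used here, so reads at the locus do not check the genotype. In KO, Il4 had 426 and 523 in first libraries and 352 and 236 in the repeats, against 99 and 40 in Il4-/-KO, with no overlap between these genotypes.

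The other type 2 cytokine genes of the cluster were low in both genotypes. Il5, which encodes the growth factor of eosinophils, had normalized counts of 36 and 38 in WT and 16 and 1 in Il4-/-, with a log2 difference of -2.83 ± 1.95. Il13, whose product shares the IL-4 receptor alpha chain, had 7 and 11 in WT and 6 and 6 in Il4-/-, close to the level of a few reads. The genotypes did not overlap for either gene. Further along the chromosome, Csf2, the gene of the cytokine GM-CSF, had 173 and 154 in WT and 42 and 137 in Il4-/- (log2 difference -1.09 ± 0.80).

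The neighbourhood of Il4 was read as a whole because alleles linked to a deleted locus are carried along with it. Within 1 Mb of the Il4 start, 22 other genes were tested and none had an unadjusted p under 0.05. For 3 of them both Il4-/- replicates lay above WT, and for 4 below, near the shares of all genes. Within 5 Mb, 109 genes were tested, again none had an unadjusted p under 0.05, and their median log2 difference was -0.04. Of the listed neighbours, Aff4, a scaffold of the super elongation complex, had the smallest p. It had normalized counts of 2263 and 3686 in WT and 4255 and 5354 in Il4-/- (log2 difference 0.72 ± 0.35). Sept8, a septin gene close to Il4, had 366 and 199 in WT and 642 and 463 in Il4-/- (1.01 ± 0.75).

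**Figure D1:**
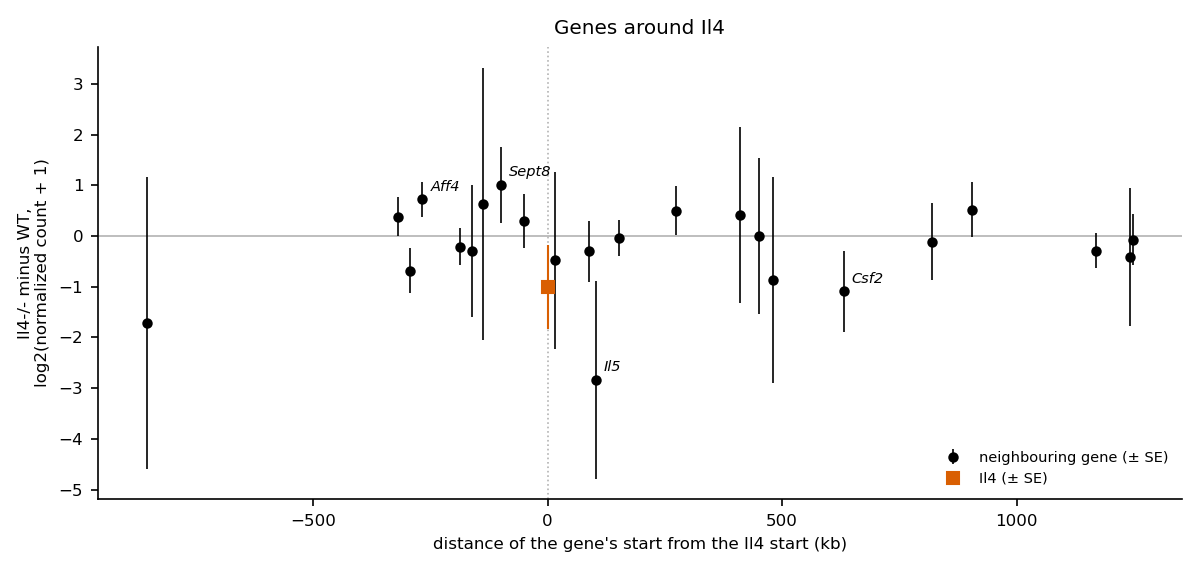
Log2 difference (Il4-/- minus WT, ± SE) of Il4 and its listed neighbours that were tested, by distance of each gene's start from the Il4 start in kb. Il4 lies at -1.0 and Il5 at -2.83, and the error bars of the neighbours spread on both sides of 0.

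The type 2 helper list did not move one way. Of its 16 members tested, 9 were higher and 7 lower in Il4-/-. Only 1 had an unadjusted p under 0.05, a higher member, against 2.54% of all genes tested that were higher at that level. The median log2 difference was 0.16 against 0.01 over all genes tested. It was -0.32 without Il4-/- replicate 2, -0.06 without WT replicate 1, 0.38 without WT replicate 2 and 0.43 without Il4-/- replicate 1. Gata3, the lineage factor, had normalized counts of 2661 and 4286 in WT and 3721 and 4112 in Il4-/-, so the genotypes overlapped (log2 difference 0.21 ± 0.41). Ccr8, a chemokine receptor of type 2 and regulatory T cells, was at 4065 and 8967 in WT and 4161 and 2762 in Il4-/- (-0.83 ± 0.58). Il1rl1, the IL-33 receptor gene, had 290 and 236 in WT and 325 and 546 in Il4-/- (0.68 ± 0.55). The member with p under 0.05 was Ptgdr2, the prostaglandin D2 receptor also called CRTH2. It was at 0 in both WT libraries and at 11 and 14 in Il4-/-, and it was also at 0 in both first KO libraries while 1 KO repeat had 74.

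The genes of the IL-4 receptor and its transcription factor did not differ beyond the spread between replicates. Il4ra, the receptor chain, had normalized counts of 5096 and 8933 in WT and 6287 and 8506 in Il4-/- (log2 difference 0.12 ± 0.36). Stat6 had 6814 and 9739 in WT and 6926 and 7444 in Il4-/- (-0.18 ± 0.29). In both genes the Il4-/- values lay inside the range of WT. Of the 19 members of the IL-4 and STAT6 response list, 10 were higher and 9 lower, none had an unadjusted p under 0.05, and the median was 0.02. It was -0.30 without WT replicate 1, -0.12 without Il4-/- replicate 1 and 0.47 without WT replicate 2. Bcl6, whose promoter is shown above, had 906 and 845 in WT and 412 and 808 in Il4-/- (-0.60 ± 0.47). Ecm1, a matrix protein that type 2 cells use to leave lymph nodes, had 3068 and 4762 in WT and 1906 and 2941 in Il4-/- (-0.69 ± 0.42). Jak3, the kinase on the common gamma chain, had 3039 and 5795 in WT and 5722 and 5887 in Il4-/- (0.47 ± 0.37). Cish, a feedback inhibitor that cytokines induce through STAT5, had 4355 and 4789 in WT and 9847 and 6269 in Il4-/-. Its genotypes did not overlap, with a log2 difference of 0.78 ± 0.36, and its KO repeats differed from the first libraries by 0.37 and 1.0.

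Stat5a had the smallest p of the JAK, STAT and SOCS list. STAT5A carries the signals of IL-2, IL-7 and related cytokines. Stat5a (chromosome 11, 100859351 to 100885169) had normalized counts of 1085 and 1246 in WT and 2597 and 2706 in Il4-/-. The replicates of each genotype lay close together, and the log2 difference was 1.19 ± 0.28 (limma adjusted p = 1.0). The KO repeats differed from the first libraries of the same RNA by 0.23 and -0.14, and a fit with a term for library set gave 1.14. That term was estimated over all 10 libraries and rests on the KO replicates, and it moved the median of all genes to 0.14. Its close relative Stat5b had 3983 and 7570 in WT and 8855 and 8164 in Il4-/- (0.63 ± 0.36), with 0.24 and 0.64 between the KO libraries. Of the 22 genes of the JAK, STAT and SOCS list, 14 were higher and 8 lower. Only 1, Stat5a, had an unadjusted p under 0.05, against 2.54% of all genes tested that were higher at that level. Socs4, a suppressor of cytokine signalling, had 713 and 758 in WT and 402 and 402 in Il4-/- (-0.87 ± 0.41), but the KO libraries differed by -1.36 and -0.68.

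Among 26 cytokine receptor chains, 19 were higher and 7 lower. Only 1 had an unadjusted p under 0.05, a higher member, against 2.54% of all genes tested that were higher at that level. The list median was 0.24. The sign of that median depended on WT replicate 1, without which it was -0.06. It was 0.58 without WT replicate 2 and 0.42 without Il4-/- replicate 2. That 1 was Il2ra, the gene of CD25, which the sort used as its gate. Il2ra had normalized counts of 400 and 1089 in WT and 1717 and 1896 in Il4-/- (log2 difference 1.45 ± 0.60), and KO had 1205 to 4641 over its libraries. Il10ra, the IL-10 receptor chain, had 1676 and 2619 in WT and 2897 and 4613 in Il4-/- (0.80 ± 0.35), with 0.08 and 0.30 between the KO libraries. Il23r and Il1r1, receptors of type 17 cells, spread widely within WT. Il23r had 3 and 148 in WT and 183 and 312 in Il4-/-, and Il1r1 had 25 and 157 in WT and 205 and 452 in Il4-/-.

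The genes with the smallest p, chosen by a rule that required no overlap between genotypes, mostly differed in the same direction between libraries of 1 RNA. For 11 of the 15 higher genes and 11 of the 15 lower genes, both KO replicates differed between repeat and first library in the direction of Il4-/- against WT. Over all genes tested this held for 4737 of 14473. The median log2 difference of the 15 higher genes was 2.26, against 1.31 and 1.57 between the KO libraries, and it was 0.69 in the fit with the term for library set. For the 15 lower genes the median was -1.98, against -0.88 and -1.27, and -0.39 with the term. These medians are a description of genes picked for their difference.

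Srcap (chromosome 7, 127511983 to 127561219), a chromatin remodeller that deposits the histone variant H2A.Z, had the smallest p. It had normalized counts of 689 and 676 in WT and 3451 and 3610 in Il4-/-, a log2 difference of 2.37 ± 0.29 (limma adjusted p = 0.414). The first KO libraries had 690 and 671 and the KO repeats 2821 and 1694. The shallower libraries of WT and KO thus lay between 671 and 690, and every deeper library lay above them, Il4-/-KO included with 2103 and 1882. DESeq2 gave Srcap an adjusted p of 1.53e-06 in this comparison, and over all alternatives its adjusted p ran from 1.53e-06 to 1.0. Eif4ebp2, an inhibitor of cap-dependent translation, had 266 and 120 in WT and 1991 and 1903 in Il4-/- (log2 difference 3.44 ± 0.43, limma adjusted p = 0.414). Its first KO libraries had 316 and 323, and its repeats 1654 and 2623.

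Other higher genes had the same order of libraries. Cdk13, a kinase of the RNA polymerase II tail, had 1159 and 1197 in WT and 4583 and 4715 in Il4-/-, and it went from 1132 and 1229 to 3507 and 9706 between the first KO libraries and their repeats. Prrc2b had 1415 and 1452 in WT and 4518 and 5180 in Il4-/-, and it went from 1623 and 1984 to 5569 and 11353 between the KO libraries. With the term for library set, Cdk13 and Prrc2b were lower in Il4-/-, by log2 differences of -0.33 and -0.39. The histone methyltransferase gene Kmt2d, the argonaute gene Ago2, the cytoskeletal linker gene Plec, the adaptor gene Cmip and Particl, a long noncoding RNA beside Mat2a, had log2 differences of 1.71 to 2.20. Their KO libraries differed in the same direction, by 0.60 to 2.65. Whether the counting used strand is not given in the sources used here, so reads of Particl and of its neighbour cannot be told apart. The 15 higher genes had a median exon length of 8546 bases and the 15 lower genes 3637, against 4273 over all genes tested.

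Notch2 and Pik3ap1 kept larger differences beside the KO pairs. Notch2, a receptor of the Notch pathway, had normalized counts of 559 and 388 in WT and 2201 and 3308 in Il4-/- (log2 difference 2.53 ± 0.47, limma adjusted p = 1.0). The KO libraries differed by 1.31 and 1.70, and the term for library set left 1.03. Pik3ap1, an adaptor that links receptors to PI3 kinase, had 195 and 346 in WT and 925 and 1692 in Il4-/- (2.26 ± 0.44, limma adjusted p = 1.0). Its KO libraries differed by 0.69 and 0.29, and the term left 1.77. Pik3ap1 was at 963 to 1559 over the KO libraries and 1019 and 1093 in Il4-/-KO, so WT was its low genotype. The log2 difference of Il4-/-KO minus KO was -0.17 ± 0.44 for Pik3ap1 and 0.54 ± 0.47 for Notch2.

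At 0 in both WT libraries were 4 of the 15 higher genes. Nlrc4, an inflammasome sensor of myeloid cells, had 124 and 220 normalized counts in Il4-/-, at least 43.5-fold higher than 3 reads in a WT library. Pgr, the progesterone receptor, had 59 and 198 (at least 32.5-fold higher), Tacr3, a tachykinin receptor, had 83 and 131 (at least 27.1-fold higher), and Kcnc2, a potassium channel, had 87 and 59 (at least 18.6-fold higher). Their standard errors of 1.32 to 1.51 on the log2 scale were the largest of the 15. For Nlrc4 and Pgr, a pair of libraries from 1 RNA also went between 0 and such a level. In KO replicate 2, Nlrc4 had 59 in the first library and 0 in the repeat, and Pgr had 72 and 0. Tacr3 and Kcnc2 stayed at 0 to 5 over the KO libraries. In Il4-/-KO, Tacr3 had 22 and 19, and Kcnc2 had 74 and 25.

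**Figure D2:**
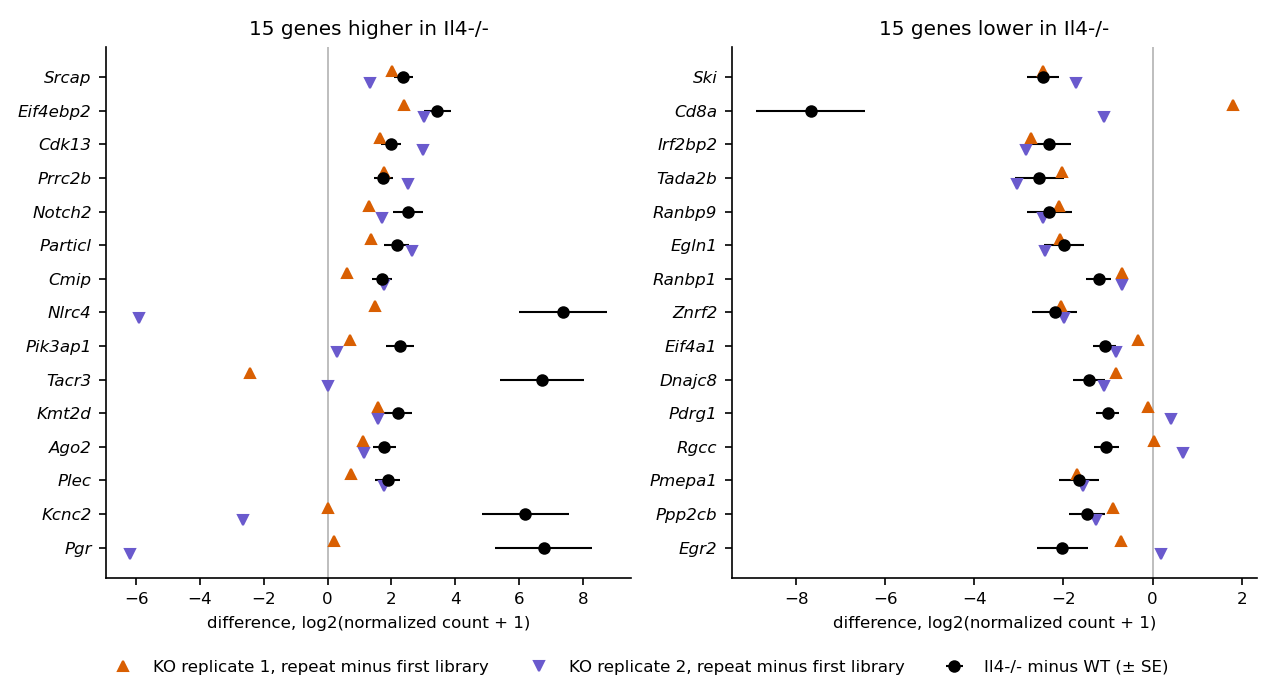
Log2 difference (Il4-/- minus WT, black points ± SE) of the 15 higher and 15 lower genes with the smallest p, beside the difference between repeat and first library of each KO replicate (triangles). For Srcap, Eif4ebp2, Ski, Irf2bp2 and most others the triangles lie on the side of the black point, and for Pik3ap1, Pdrg1, Rgcc, Cd8a and the genes at 0 in WT they lie nearer 0 or on the other side.

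Ski led the lower genes. SKI is a corepressor that binds Smad proteins. Ski (chromosome 4, 155154075 to 155222592) had normalized counts of 6754 and 8607 in WT and 1537 and 1232 in Il4-/- (log2 difference -2.47 ± 0.36, limma adjusted p = 0.729). The KO replicates went from 3254 and 4448 in the first libraries to 587 and 1350 in the repeats, and the term for library set left -0.37. Irf2bp2, another corepressor, had 10472 and 3833 in WT and 1020 and 1585 in Il4-/-, and went from 7260 and 8989 to 1101 and 1255 between the KO libraries. Its log2 difference of -2.32 ± 0.48 became 0.46 with the term. Tada2b, a subunit of the SAGA complex, had 727 and 808 in WT and 138 and 125 in Il4-/-, and 445 and 555 against 108 and 66 in the KO libraries. Its difference of -2.54 ± 0.55 became 0.01 with the term.

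Another 7 lower genes had the same form. Ranbp9, a scaffold protein gene, Egln1, a prolyl hydroxylase that marks hypoxia-inducible factors for decay, and Znrf2, a ubiquitin ligase gene, had log2 differences of -2.32, -1.98 and -2.20. Their KO libraries differed by -1.99 to -2.47. Ranbp1, a regulator of Ran, Eif4a1, the helicase of translation initiation, Dnajc8, a J-domain protein, and Ppp2cb, a catalytic subunit of protein phosphatase 2A, had differences of -1.07 to -1.47 and KO differences of -0.33 to -1.27.

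Rgcc, Pdrg1 and Egr2 differed between the genotypes and less, or the other way, between the KO libraries. Rgcc, a regulator of the cell cycle, had normalized counts of 6485 and 6822 in WT and 3730 and 2789 in Il4-/- (log2 difference -1.04 ± 0.28, limma adjusted p = 1.0). Its KO libraries differed by 0.03 and 0.69, and the term for library set gave -1.40. Pdrg1, a small prefoldin-like protein gene, had 3617 and 3796 in WT and 1917 and 1765 in Il4-/- (-1.01 ± 0.26, limma adjusted p = 1.0), with KO differences of -0.11 and 0.42. Egr2, an early transcription factor of antigen receptor signalling, had 5116 and 4878 in WT and 716 and 2074 in Il4-/- (-2.03 ± 0.57, limma adjusted p = 1.0), with KO differences of -0.70 and 0.18. In all 3 genes the WT replicates were alike, which a choice by small p favours. The rule that picked these genes required that the genotypes not overlap.

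Tgfbr2, intact in both genotypes, was higher in Il4-/-. It had normalized counts of 7876 and 7894 in WT and 13816 and 12544 in Il4-/- (log2 difference 0.74 ± 0.26, limma adjusted p = 1.0). The KO libraries of 1 RNA differed by 0.39 and 0.70, and the term for library set left 0.19. Tgfb1, the gene of the ligand TGF-beta 1 (chromosome 7, 25687002 to 25705077), had 1606 and 1851 in WT and 3413 and 3881 in Il4-/- (1.08 ± 0.27, limma adjusted p = 1.0). Its KO libraries differed by 0.35 and 1.32, and the term left 0.24. Smad3, which carries the signal to the nucleus, had 1388 and 1225 in WT and 2470 and 1883 in Il4-/- (0.72 ± 0.32), with 0.13 and 0.40 between the KO libraries. Of 22 ligands, receptors and Smads tested, 12 were higher and 10 lower, with a median of 0.20. The median was -0.21 without Il4-/- replicate 2, -0.01 without WT replicate 2, 0.50 without Il4-/- replicate 1 and 0.64 without WT replicate 1. The 2 with an unadjusted p under 0.05 were Tgfb1 and Tgfbr2, both higher, against 2.54% of all genes tested.

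The TGF-beta response list had 4 members higher and 11 lower of 15, with a median of -0.30. For 6 (40%) both Il4-/- replicates lay below WT, against 14.6% of all genes tested. With 1 WT or Il4-/- replicate left out the median was -0.44 to -0.79, the farthest from 0 without WT replicate 1 and -0.61 without Il4-/- replicate 2. The KO libraries gave -0.08 and 0.00, and the term for library set -0.26. The 3 with an unadjusted p under 0.05, all lower, were Ski, Pmepa1 and Cdkn1a. Of all genes tested, 1.35% were lower at that level. Pmepa1, a feedback inhibitor that TGF-beta induces, had normalized counts of 6580 and 5748 in WT and 2598 and 1469 in Il4-/- (log2 difference -1.65 ± 0.44, limma adjusted p = 1.0). Between the KO libraries it differed by -1.69 and -1.56, and the term for library set left -0.03. Cdkn1a, the p21 inhibitor of cyclin kinases, had 4443 and 5471 in WT and 1761 and 3414 in Il4-/- (-1.01 ± 0.40), with -0.38 and 0.39 between the KO libraries. Another 2 direct targets of Smads had no shared direction. Smad7, the inhibitory Smad, had 2156 and 3318 in WT and 4797 and 4199 in Il4-/- (0.75 ± 0.45), and Skil, a paralogue of Ski, had 7125 and 20725 in WT and 11838 and 12174 in Il4-/- (-0.02 ± 0.54).

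Genes of regulatory T cells included several with higher values in Il4-/-. Foxp3, their lineage factor, had normalized counts of 437 and 182 in WT and 1415 and 1141 in Il4-/- (log2 difference 2.17 ± 0.92, limma adjusted p = 1.0). KO varied from 330 to 3386 over its libraries, with repeat minus first at -0.33 and 1.15. Nrp1, a surface receptor of thymus-derived regulatory cells, was at 1189 and 2391 in WT and 3510 and 4297 in Il4-/- (1.20 ± 0.41), with -0.79 and -0.35 between the KO libraries. Lrrc32, which holds latent TGF-beta at the surface, had 191 and 426 in WT and 671 and 723 in Il4-/- (1.28 ± 0.63). Its KO libraries differed by 0.41 and 1.58. The term for library set left 0.29 for Lrrc32, 1.75 for Foxp3 and 1.77 for Nrp1. Ctla4, a checkpoint receptor that regulatory cells carry, had 5154 and 6204 in WT and 4291 and 5567 in Il4-/- (-0.21 ± 0.96), so it did not share the direction. The lowest member, Gpr83, a receptor of regulatory cells, was at 117 and 20 against 0 and 60 (-2.67 ± 2.00). The list median was 0.10, against 1.04 with the term for library set, 1.08 without WT replicate 2, 0.42 without Il4-/- replicate 2, 0.30 without Il4-/- replicate 1 and 0.16 without WT replicate 1. Of the 13 members of the list, 8 were higher and 5 lower, and 3 (Foxp3, Il2ra and Nrp1) had an unadjusted p under 0.05. For 5 (38.5%) both Il4-/- replicates lay above WT. Over all genes tested, 2.54% were higher at that p and 14.7% lay above WT in both replicates. In bulk samples, a larger share of such cells and more RNA per cell cannot be told apart.

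Checkpoint and exhaustion genes had the largest median of the state lists, 1.05, with 10 of 13 members higher. For 8 (61.5%) both Il4-/- replicates lay above WT, against 14.7% of all genes tested. With the term for library set the median was 0.52, the KO libraries gave 0.02 and 0.32, and without Il4-/- replicate 1 or WT replicate 1 it was 0.63 or 0.65. Tox, a transcription factor of exhausted cells, had normalized counts of 935 and 1748 in WT and 4804 and 2678 in Il4-/- (log2 difference 1.49 ± 0.42, limma adjusted p = 1.0). Its KO libraries differed by -0.11 and -0.52, and the term gave 1.81. Pdcd1, the gene of PD-1, had 6702 and 4536 in WT and 15196 and 8539 in Il4-/- (1.05 ± 0.46), with 0.22 and 0.31 between the KO libraries. Lag3, another inhibitory receptor, had 22 and 62 in WT and 214 and 156 in Il4-/- (2.26 ± 0.99). Nr4a3, an orphan receptor induced by antigen, had 973 and 1889 in WT and 2858 and 3096 in Il4-/- (1.13 ± 0.40). Between its KO libraries the difference was 1.12 and 1.76, and with the term the sign turned (-0.31). Eomes, a T-box factor of memory and cytotoxic cells, was at 117 and 267 in WT and 1952 and 417 in Il4-/- (2.35 ± 0.86), and without Il4-/- replicate 1 the difference was 1.23.

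**Figure D3:**
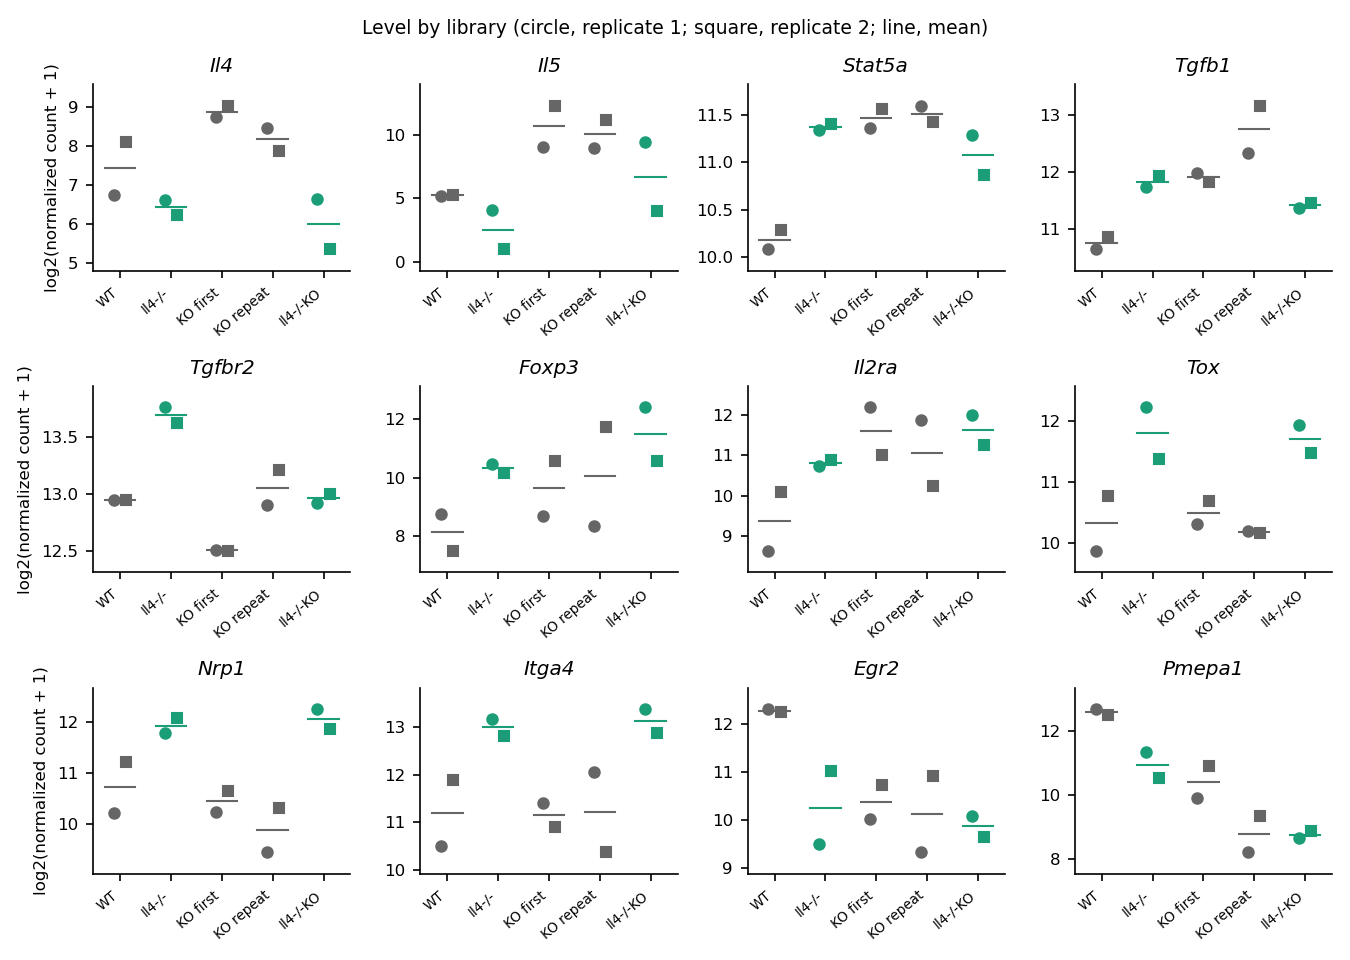
Log2(normalized count + 1) of 12 genes in each library, by genotype, with the first and repeat libraries of KO apart (circle, replicate 1; square, replicate 2; line, mean). Stat5a, Tox and Nrp1 are higher in Il4-/- than in WT with little or opposite difference between KO first and KO repeat, while Pmepa1 and Tgfb1 differ between KO first and KO repeat as well.

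The type 1, type 17 and follicular helper lists each had most members higher in Il4-/-, and the type 1 genes Tbx21 and Ifng varied widely within WT. Tbx21, the type 1 factor, had normalized counts of 2787 and 9708 in WT and 4256 and 4670 in Il4-/- (log2 difference -0.22 ± 0.53). Ifng, its main cytokine gene, had 3733 and 9012 in WT and 4129 and 4429 in Il4-/- (-0.44 ± 0.83). Both Il4-/- values of each gene lay inside the range of WT. Of 18 type 1 genes, 13 were higher and 5 lower with a median of 0.59, which was -0.03 without WT replicate 1 and 1.16 without WT replicate 2. Il18r1, the IL-18 receptor, had 826 and 2498 in WT and 3464 and 2696 in Il4-/- (1.09 ± 0.71), Il2 had 353 and 422 against 241 and 148 (-1.03 ± 0.56), and Ccl5, a chemokine gene, had 3912 and 5002 against 16954 and 4179. Of 15 type 17 genes, 10 were higher and 5 lower, none with an unadjusted p under 0.05. For 6 (40%) both Il4-/- replicates lay above WT, against 14.7% of all genes tested. The type 17 median was 0.55, and 0.33 to 1.01 with 1 WT or Il4-/- replicate left out. It was lowest without WT replicate 1 and highest without Il4-/- replicate 1. Between the KO libraries it was 0.13 and -0.58. Rora had 2056 and 5652 in WT and 6493 and 7808 in Il4-/- (1.06 ± 0.56), and Ccr6 had 241 and 186 against 621 and 429 (1.28 ± 0.76). Of 13 follicular helper genes, 10 were higher and 3 lower, with a median of 0.15. That median was 0.01 without Il4-/- replicate 1 and 0.50 without WT replicate 2. Bcl6, 1 of the lower members, had 906 and 845 in WT and 412 and 808 in Il4-/- (-0.60 ± 0.47). Cxcr5, the receptor that leads these cells into follicles, had 109 and 238 in WT and 446 and 248 in Il4-/-, and Tox2 had 169 and 186 against 529 and 335 (1.24 ± 0.58).

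Tissue residence and adhesion genes had a median of 0.25, which was -0.31 without WT replicate 1, 0.09 without Il4-/- replicate 1, 0.47 without Il4-/- replicate 2 and 0.67 without WT replicate 2. Itga4, the alpha chain of the integrin VLA-4, had normalized counts of 1458 and 3819 in WT and 9233 and 7231 in Il4-/- (log2 difference 1.79 ± 0.54, limma adjusted p = 1.0). The KO libraries differed by 0.64 and -0.53, and the term for library set gave 1.73. Cd44, a hyaluronan receptor of antigen-experienced cells, was at 5755 and 6352 in WT and 9948 and 9119 in Il4-/- (0.66 ± 0.28), with 0.16 and -0.96 between the KO libraries. Itgal, the LFA-1 alpha chain, had 7526 and 16663 in WT and 19278 and 17179 in Il4-/- (0.70 ± 0.44). Cd69, which holds cells in tissue, had 5921 and 15304 in WT and 7081 and 3763 in Il4-/- (-0.88 ± 0.73). Of the 15 members tested, 12 were higher and 2, Itga4 and Cd44, had an unadjusted p under 0.05. Of all genes tested, 2.54% were higher at that level.

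Naive and central memory genes were higher for 14 of 15 members, with a median of 0.37 (0.25 without Il4-/- replicate 1, 0.57 without Il4-/- replicate 2) and none at an unadjusted p under 0.05. Tcf7, a factor of naive and stem-like cells, had normalized counts of 9094 and 11605 in WT and 14053 and 15397 in Il4-/- (log2 difference 0.52 ± 0.42). S1pr1, the exit receptor, had 9717 and 10599 against 14032 and 12718 (0.40 ± 0.35). Il7r and Satb1 overlapped, with 4813 and 9903 against 13620 and 9666 for Il7r and 3430 and 7238 against 9437 and 7099 for Satb1. Cytotoxic and NK receptor genes had 8 of 14 members higher and a median of 0.10, which was -0.93 without Il4-/- replicate 1, -0.52 without WT replicate 1, 0.40 without WT replicate 2 and 0.60 without Il4-/- replicate 2. Klrg1, an inhibitory receptor of effector cells, was at 339 and 206 in WT and 428 and 515 in Il4-/- (0.83 ± 0.40). This was far under KO, where the 4 libraries had 2745 to 5493.

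The immediate early list had the lowest median of the state and program lists. It held 22 lower and 6 higher members of 28, with a median of -0.87. For 9 (32.1%) both Il4-/- replicates lay below WT, against 14.6% of all genes tested. With the term for library set the median was -1.11, and the KO libraries gave 0.00 and 0.58. The 4 lower members with an unadjusted p under 0.05 were Egr2, Ppp1r15a, Dusp1 and Btg2, and 1 member, Nr4a3, was higher at that level (log2 difference 1.13 ± 0.40). Of all genes tested, 1.35% were lower and 2.54% higher at that level. Btg2, an antiproliferative gene, was at 46588 and 43218 against 19731 and 28821 (-0.91 ± 0.38). Ppp1r15a, which restarts translation after stress, had normalized counts of 8661 and 15249 in WT and 3764 and 6260 in Il4-/- (log2 difference -1.24 ± 0.41), with -0.44 and 0.28 between the KO libraries. Dusp1, a phosphatase of MAP kinases, had 38849 and 42170 against 11398 and 27475 (-1.19 ± 0.49), with -0.34 and 0.43. The summed level of the list was 681288 and 523289 in WT and 230528 and 451482 in Il4-/-. Il4-/- replicate 1 was the lowest of the 4. Without that replicate the list median was -0.15, and without WT replicate 1 it was -0.21. No label gives handling times, and the part of tissue digestion in these values was not tested.

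Interferon-stimulated genes were lower for 19 of 23 members, with a median of -0.46 and none at an unadjusted p under 0.05. For 9 (39.1%) both Il4-/- replicates lay below WT, against 14.6% of all genes tested. Usp18, which damps interferon receptor signalling, had normalized counts of 3244 and 7442 in WT and 2460 and 2327 in Il4-/- (log2 difference -1.04 ± 0.47). Isg15 had 4339 and 3619 against 2317 and 2289 (-0.78 ± 0.38). Rtp4 had 5933 and 6888 against 3599 and 3460 (-0.86 ± 0.41), and Oasl1 had 1449 and 665 against 328 and 662. The KO libraries gave list medians of 0.03 and -0.26, and the term for library set left -0.21. Without WT replicate 2 the median was -0.25, and without WT replicate 1 -0.64.

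Most cell cycle, respiration and proteasome genes had lower values in Il4-/-, by small amounts. Of 26 cell cycle genes, 21 were lower, and the median was -0.41. For 10 (38.5%) both Il4-/- replicates lay below WT, against 14.6% of all genes tested. Ccnb1, the cyclin of mitotic entry, had normalized counts of 972 and 1118 in WT and 411 and 521 in Il4-/- (log2 difference -1.17 ± 0.46). The mitotic kinase gene Aurka had 590 and 647 against 346 and 301 (-0.94 ± 0.37). Ccnb2 had 1233 and 2037 against 919 and 702 (-0.98 ± 0.42), and Tyms, which makes thymidylate, 1054 and 1345 against 724 and 531 (-0.94 ± 0.42). The cell cycle median was -0.15 without WT replicate 2, -0.11 without Il4-/- replicate 2, -0.84 without WT replicate 1 and -0.69 without Il4-/- replicate 1. Of 38 oxidative phosphorylation genes, 35 were lower with a median of -0.39. For 14 (36.8%) both Il4-/- replicates lay below WT, again against 14.6% of all genes tested. Ndufb8, of complex I, had 3402 and 2553 against 1945 and 1622 (-0.73 ± 0.28), and Cycs, cytochrome c, 1315 and 1135 against 744 and 539 (-0.95 ± 0.39). Of 35 proteasome genes, 32 were lower with a median of -0.30, such as Psmb6 with 6730 and 5748 against 3605 and 4044 (-0.70 ± 0.28). The KO libraries differed in the same direction by less, with medians of -0.13 and -0.23 for oxidative phosphorylation and -0.13 and -0.19 for the proteasome. With the term for library set the medians were -0.21 and -0.11. The oxidative phosphorylation median was -0.09 without WT replicate 1, -0.18 without Il4-/- replicate 2, -0.62 without Il4-/- replicate 1 and -0.74 without WT replicate 2, and the proteasome median was -0.06 without Il4-/- replicate 2, -0.55 without Il4-/- replicate 1 and -0.53 without WT replicate 2.

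Ribosomal protein genes had higher values, with a median that turned sign without 1 library. Of 64 cytosolic ribosomal protein genes, 62 were higher with a median of 0.51, yet for none did both Il4-/- replicates lie above WT. Their summed level was 378073 and 131623 in WT and 429674 and 227655 in Il4-/-. WT replicate 2 was the low sample, and without it the median was -0.39, while without WT replicate 1 it was 1.35. Rpsa, of the small subunit, shows the spread, with 7548 and 2680 in WT and 13206 and 6751 in Il4-/- (log2 difference 1.07 ± 0.52). Reads of ribosomal protein genes can be split with their many pseudogenes, so single values are uncertain.

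Chromatin remodelling and histone methylation genes had 30 of 32 members higher and a median of 0.81. The median was 0.30 without WT replicate 1 and 1.46 without WT replicate 2. Of the members, 11 were higher at an unadjusted p under 0.05, against 2.54% of all genes tested. For 19 (59.4%) both Il4-/- replicates lay above WT, against 14.7% of all genes tested. Between the KO libraries of 1 RNA the list had medians of 0.68 and 0.67, and with the term for library set its median was 0.14, the value of all genes in that fit. Ep300, a histone acetyltransferase gene, had normalized counts of 944 and 1588 in WT and 2886 and 3543 in Il4-/- (log2 difference 1.38 ± 0.35, limma adjusted p = 1.0), and its KO libraries differed by 1.78 and 1.08. Kmt2a, a histone methyltransferase gene, had 1278 and 2045 against 4993 and 3272 (1.32 ± 0.36), with 1.27 and 1.41 in KO. Setd5 had 848 and 716 against 1968 and 2151 (1.40 ± 0.32), with 0.92 and 0.33 in KO, and the term left 0.77.

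**Figure D4:**
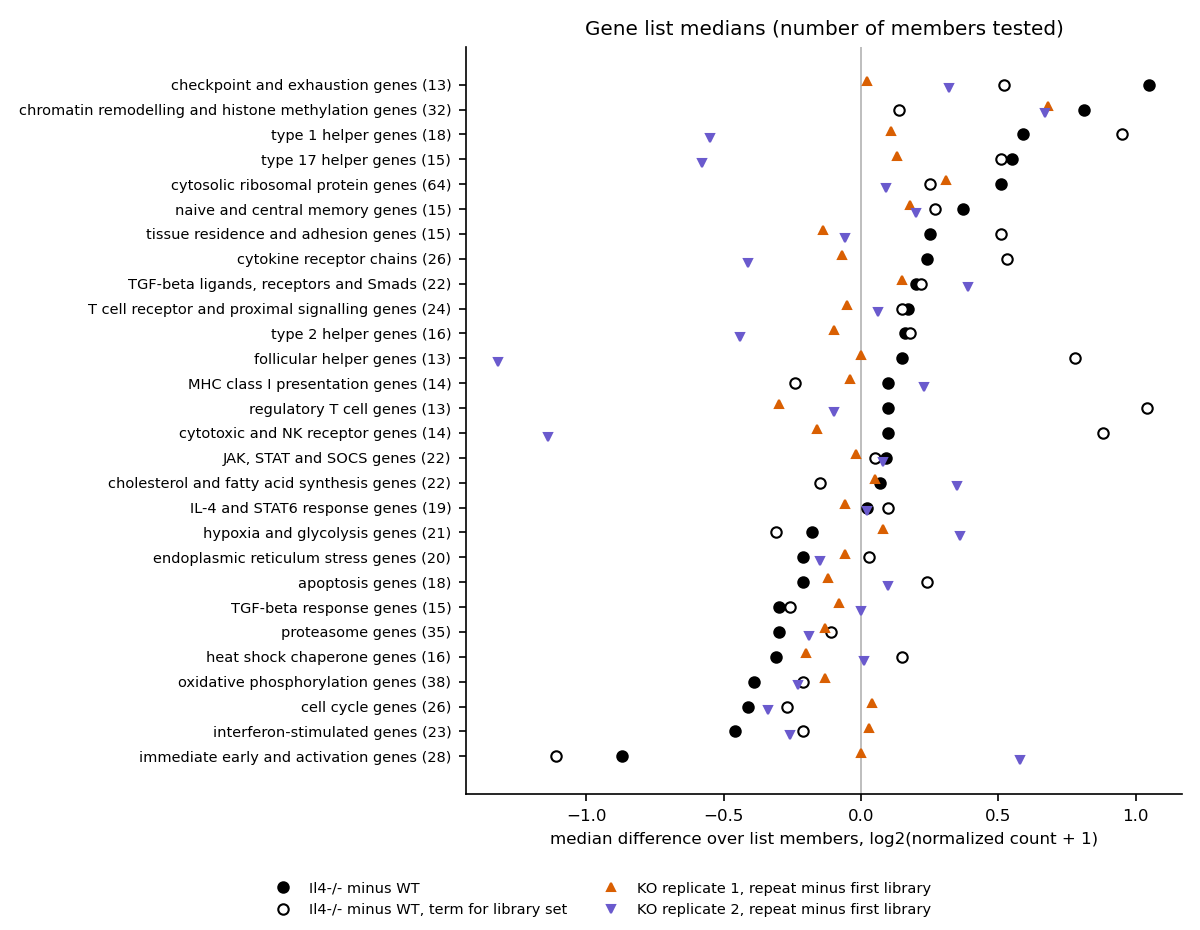
Median log2 difference of each state and program list for Il4-/- minus WT (filled), the same with a term for library set (open), and repeat minus first library in each KO replicate (triangles). Immediate early genes lie at -0.87 with the triangles at or above 0, whereas for chromatin genes the triangles lie next to the filled point at 0.81 and the open point lies at 0.14.

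Stress and receptor signalling lists were mixed. Hsp90aa1, an inducible chaperone gene, had normalized counts of 8267 and 17413 in WT and 26649 and 25081 in Il4-/- (log2 difference 1.11 ± 0.45), while 11 of the 16 heat shock genes were lower. In the endoplasmic reticulum stress list, 8 members were higher and 12 lower. Its sensor gene Atf6 had 717 and 459 in WT and 1234 and 2267 in Il4-/- (1.54 ± 0.46), and Ddit3, a factor of stress-induced death, had 1355 and 891 against 523 and 606 (-0.96 ± 0.39). Among 24 genes of the T cell receptor and its proximal signalling, 15 were higher and 9 lower. Cd4 had 12165 and 13115 in WT and 31408 and 21531 in Il4-/- (1.04 ± 0.37), with 0.33 and 0.24 between the KO libraries. Lat, an adaptor of the receptor, had 10979 and 25604 against 10736 and 6021 (-1.06 ± 0.46). The lists of hypoxia and glycolysis, cholesterol and fatty acid synthesis, MHC class I presentation and apoptosis had medians between -0.21 and 0.10, and none of their members had an unadjusted p under 0.05. Hypoxia and glycolysis varied most, from -0.67 without WT replicate 2 to 0.35 without WT replicate 1.

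The label of sorted CD4 T cells was read against markers. Cd3e, of the T cell receptor complex, had normalized counts of 13302 and 18177 in WT and 23336 and 13925 in Il4-/-, and the mean log2 level of the 11 core T cell genes tested was 13.22 to 14.00 over the 4 libraries. RNA of other cells was present in amounts that differed within a genotype. The macrophage and monocyte list had 15 of 16 members higher in Il4-/- and a median of 2.07, with summed levels of 27582 and 27078 in WT and 23956 and 131886 in Il4-/-. Without Il4-/- replicate 2 its median was 0.45. Apoe had 1976 and 7198 in WT and 6125 and 38435 in Il4-/-. Adgre1, which encodes F4/80, had 36 and 243 against 128 and 1426. Mrc1, the mannose receptor that IL-4 induces in macrophages, was at 0 in both WT libraries and in Il4-/- replicate 1 and had 490 in Il4-/- replicate 2. Macrophage RNA was thus high in 1 Il4-/- library and not in the other, and its part in the results of T cell genes was not tested gene by gene beyond the fit with the list as a covariate. That fit gave log2 differences of 0.82 for Nrp1 beside 1.20 and 0.43 for Il10ra beside 0.80. It gave 2.02 for Foxp3 beside 2.17 and 1.61 for Tox beside 1.49.

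Antigen-presenting and epithelial genes also varied within a genotype, and were highest in different libraries. Cd74, the invariant chain, had normalized counts of 2916 and 14817 in WT and 8703 and 56413 in Il4-/-, and H2-Ab1, a class II chain, 959 and 4852 against 2151 and 17709. Krt8, a keratin of simple epithelium, had 39788 and 2873 in WT and 2581 and 8736 in Il4-/-, and Krt18 had 55536 and 5196 against 3346 and 9335. WT replicate 1 held the most keratin RNA, and the summed epithelial list was 239963 and 31863 in WT and 51997 and 148811 in Il4-/-. Mmp9, a protease gene of neutrophils, had 92 and 108 against 276 and 249 (log2 difference 1.38 ± 0.44). Mmp9 was at 3205 to 11747 in the KO libraries, and most of the other neutrophil genes did not share its direction. Of the 8 tested, 2 were higher and 6 lower, with log2 differences from -3.74 to 5.17. For the 2 higher genes, both Il4-/- replicates lay above WT. The list median was -1.04, which was 1.07 without Il4-/- replicate 1 and -2.57 without Il4-/- replicate 2. The sums over the list were 655 and 335 in WT and 386 and 1253 in Il4-/-. The calprotectin genes S100a8 and S100a9 had 291 and 21 against 19 and 70, and 190 and 26 against 0 and 49. Ccr3, an eosinophil chemokine receptor, had 9 and 1 in WT and 118 and 62 in Il4-/- (4.16 ± 1.36).

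CD8 transcripts were lower in both Il4-/- replicates. Cd8a (chromosome 6, 71373427 to 71379173) had normalized counts of 227 and 783 in WT and 0 and 3 in Il4-/-, a log2 difference of -7.68 ± 1.23 (limma adjusted p = 0.862). KO had 25 and 133 in the first libraries and 90 and 62 in the repeats, and Il4-/-KO had 37 and 62, so only the Il4-/- libraries were near 0. DESeq2 gave an adjusted p of 6.92e-08, and over all alternatives the adjusted p ran from 6.92e-08 to 1.0. Cd8b1, the other chain, had 468 and 343 in WT and 198 and 112 in Il4-/- (-1.42 ± 0.64), against 177 to 462 in the KO libraries. The part of CD8 T cells carried through the sort in these values was not tested.

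**Figure D5:**
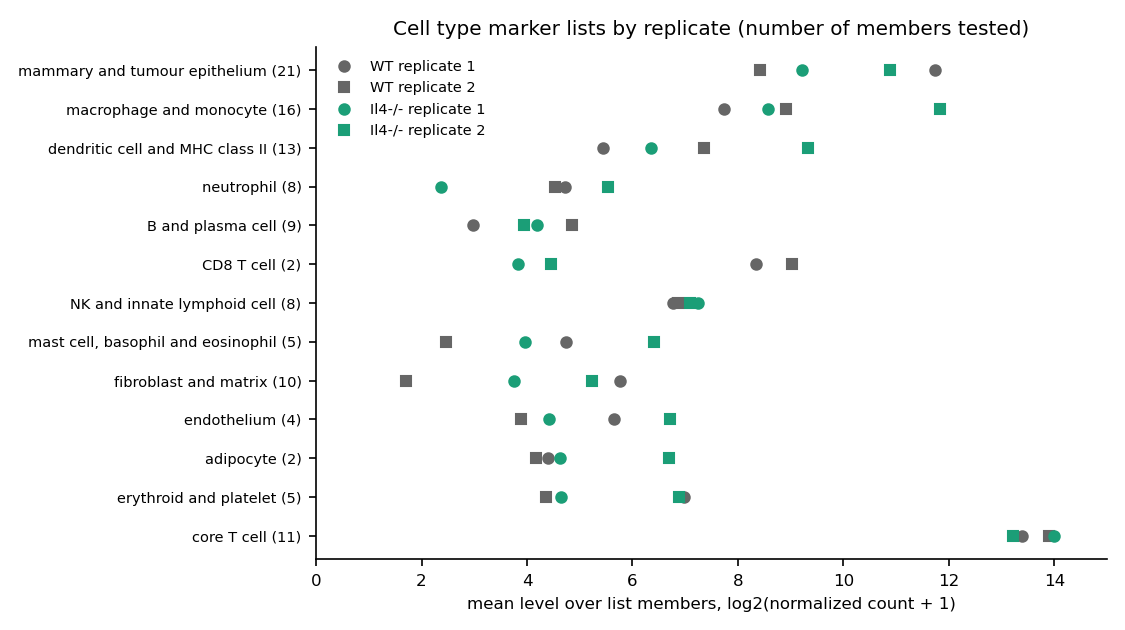
Mean log2(normalized count + 1) of each cell type marker list in the WT (grey) and Il4-/- (green) replicates. The core T cell list lies between 13.22 and 14.00 in all 4, macrophage and dendritic lists are highest in Il4-/- replicate 2, the epithelial list is highest in WT replicate 1, and the CD8 list is lower in both Il4-/- replicates.

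The design holds Il4 loss a second time, in cells without Tgfbr2, where Il4-/-KO was compared with KO. The comparisons share no sample, but KO was the mean of its first and repeat libraries, so library set enters both, less in the second. No gene passed limma there (1811 at an unadjusted p under 0.05), and DESeq2 called 386. The interaction, which tests whether the effect of Il4 loss differs between the Tgfbr2 backgrounds, had 0 genes past the threshold by limma (546 at an unadjusted p under 0.05) and 35 by DESeq2. Across the 9878 genes with a mean log2 level over 7, the log2 differences of the Tgfbr2 backgrounds correlated at r = 0.35, a description across genes, which are not independent replicates and share library set.

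The genes named in Tgfbr2-sufficient cells did not all keep their sign in Tgfbr2-deleted cells. Tox, Itga4 and Nrp1 had log2 differences of 1.37 ± 0.42, 1.94 ± 0.54 and 1.90 ± 0.41 there, beside 1.49, 1.79 and 1.20. The checkpoint and exhaustion list that holds Tox did not keep its direction, with a median of -0.03 there beside 1.05. Its members Pdcd1, Lag3 and Nr4a3 had -0.67 ± 0.46, -1.68 ± 0.99 and -0.03 ± 0.40, beside 1.05, 2.26 and 1.13. Rgcc had -1.07 ± 0.28 beside -1.04, and Ppp1r15a and Dusp1 had -1.18 ± 0.41 and -1.34 ± 0.49 beside -1.24 and -1.19. For Stat5a and Tgfb1 the sign differed, with -0.41 ± 0.28 beside 1.19 and -0.91 ± 0.27 beside 1.08. Their interaction was -1.60 ± 0.40 and -1.99 ± 0.38, and Tgfb1 had the smallest interaction p of all genes, yet its limma adjusted p was 0.967. Stat5a had 2503 and 1864 normalized counts in Il4-/-KO and 2632 to 3090 over the KO libraries, so WT, at 1085 and 1246, was the low genotype of the 4. Tgfb1 had 2650 and 2813 in Il4-/-KO and 3644 to 9097 in KO, again with WT lowest. Pgr and Hoxb2, with the next smallest interaction p, had 0 to 3 in Il4-/-KO and 28 to 118 in the first KO libraries, but their KO repeats lay between 0 and 49.

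Il4 and genes of its response had these values where Tgfbr2 was deleted. Il4 had a log2 difference of -2.54 ± 0.83 (limma adjusted p = 0.317) in Tgfbr2-deleted cells beside -1.0 ± 0.83, and the interaction was -1.54 ± 1.17. Ecm1 had -2.25 ± 0.42 beside -0.69 ± 0.42 (interaction adjusted p = 0.967 by limma), and Cish had -1.02 ± 0.36 beside 0.78 ± 0.36 (interaction adjusted p = 0.967 by limma). The median of the IL-4 and STAT6 response list was -0.71 in Tgfbr2-deleted cells and 0.02 in Tgfbr2-sufficient cells. The difference between these list medians was not tested. Bcl6, a member of that list, had -0.12 ± 0.47 in Tgfbr2-deleted cells. Lists outside the IL-4 pathway also moved there. The median was -1.27 for immediate early genes, -1.01 for hypoxia and glycolysis and 0.97 for chromatin genes, against 0.05 over all genes tested.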

How the data were processed

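RNA of sorted tumour CD4+CD25- T cells was amplified with SMART-Seq v4 and sequenced, per the labels' protocols. The deposited signal values are read counts per gene that the authors divided by 1 factor per library, and the submitters' processing notes name bcl2fastq 2.18.0, STAR, DESeq2 and mm10. The counter, annotation and strand setting are not given in the sources used here. The values were whole multiples of 1 read within 0.001 reads for 100.0% of values, with 1 read equal to 0.644 to 1.47 normalized counts over the libraries. Of 17370 rows, 7 without a gene name, holding 0.0029 to 0.0205% of reads, were left out. Library depth is given with the results.

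Genes with at least 10 normalized counts in 2 of 8 replicates were tested with limma 3.58.1 (R 4.3.3) on log2(value + 1) with a variance trend, all 4 genotypes in the fit, and the first and repeat libraries of a KO replicate averaged. The threshold was a Benjamini-Hochberg adjusted p of 0.05. edgeR 4.0.16 and DESeq2 1.42.0 served as alternatives on recovered reads. The scripts were tested on simulated data. Named genes were the IL-4 locus, up to 15 genes per direction with the smallest p, no overlap and 50 normalized counts in both replicates of the higher genotype, up to 4 genes per list by p (3 by level for markers of other cells), and the 3 smallest interaction p-values. Another 17 genes were added after their values were seen: Gata3, Il4ra, Stat6, Ccr8, Il1rl1, Tbx21, Ifng, Ctla4, Smad7, Skil, Cd3e, Krt8, Mrc1, Adgre1, Gpr83, Btg2 and Actb. The lists and the comparison were chosen with earlier results of these data known. Positions are from GENCODE M21.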

Additional observations from a re-analysis of the deposited data

How the results depend on the processing

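The count of 0 genes by limma was 7 without the variance trend and 29 by DESeq2. DESeq2 called 35 genes for the interaction and 386 for Il4-/-KO against KO. The 562 genes with an unadjusted p under 0.05 became 361 with the repeat KO libraries only, 956 with the epithelial list and 352 with the macrophage list as a covariate, and 378 to 1247 with each replicate left out in turn, the highest without WT replicate 2. Replicate numbers were shared by the genotypes, but deviations of same-numbered WT and Il4-/- samples correlated at -0.34, so they show no pairing. The replicate block gave 474 genes, and the crossed replicate block, chosen after seeing the data, gave 960. With the term for library set, the sign turned for Cdk13 (-0.326), Prrc2b (-0.393), Irf2bp2 (0.463), Tada2b (0.005), Egln1 (0.268), Jak3 (-0.077), Socs4 (0.155), Ctla4 (0.144), Nr4a3 (-0.305), Cd69 (0.040), Smad7 (-0.258), Ep300 (-0.045), Kmt2a (-0.019) and Gpr83 (2.075). With the macrophage covariate it turned for Gata3 (-0.027), Il4ra (-0.259), Cd74 (-0.257), H2-Ab1 (-0.821), Mrc1 (-0.803) and Adgre1 (-0.933), and with quantile normalization for Skil (0.107). Leaving out 1 replicate gave -0.132 to 0.556 for Gata3, -0.289 to 0.521 for Il4ra, -0.440 to 0.076 for Stat6, -1.123 to 0.677 for Tbx21, -1.075 to 0.196 for Ifng, -0.082 to 1.938 for Ccl5, -0.788 to 0.753 for Skil, -0.159 to 0.586 for Cd3e, -3.067 to 0.725 for Krt8, -3.312 to 0.105 for Krt18, -5.632 to 0.296 for Gpr83, -2.966 to 0.757 for S100a8 and -0.004 to 3.037 for H2-Ab1. The cause of these changes was not tested. With 2 replicates a genotype, and genotype and library set not to be told apart, a value near 0 is no evidence that a gene did not respond. Low genes such as Il13 and Ptgdr2 rest on few reads.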

Other observations

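Genes that DESeq2 alone called were of a few kinds, and were chosen here for that call. Actb, the gene of cytoskeletal actin, had normalized counts of 55375 and 34472 in WT and 233170 and 179081 in Il4-/-, with a DESeq2 adjusted p of 1.89e-05. Over all alternatives its adjusted p ran from 1.89e-05 to 1.0. The KO libraries of 1 RNA differed by 1.94 and 2.26 on the log2 scale, and the term for library set left 0.13 of a log2 difference of 2.23. Genes at 0 in both WT libraries made another kind. Retnla, a gene of alternative macrophage activation that IL-4 is known to induce, was at 0 in both WT libraries and had 15 and 152 in Il4-/-, and its mean over the libraries of KO replicate 2 was 521. Olr1 and Wdfy4 were at 0 in WT and in Il4-/- replicate 1 and had 638 and 370 in Il4-/- replicate 2, as Mrc1 did at 490. Lancl3 differed from both kinds, with 53 and 65 in WT, 382 and 338 in Il4-/- and 383 and 266 in Il4-/-KO.

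The remaining marker lists gave these mean log2 levels, in WT and then Il4-/-. NK and innate lymphoid genes had 6.76 and 6.87 against 7.24 and 7.10, B and plasma cell genes 2.98 and 4.85 against 4.19 and 3.95, mast cell, basophil and eosinophil genes 4.74 and 2.46 against 3.97 and 6.4, fibroblast and matrix genes 5.77 and 1.71 against 3.76 and 5.24, endothelial genes 5.65 and 3.89 against 4.41 and 6.71, adipocyte genes 4.39 and 4.18 against 4.63 and 6.69 and erythroid and platelet genes 6.98 and 4.36 against 4.64 and 6.88. In each of these lists except the NK list, the replicates of WT or those of Il4-/- differed by more than 0.7.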
